A study of Mus musculus with 6 samples.

Results

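The genes described here are 37 genes of the cell cycle and of DNA replication, listed by name for what their products do in dividing cells, with earlier results of these data known. They are 37 of the 24532 genes in the deposited table of read counts. RNA was sequenced from the gastrocnemius, a calf muscle made mostly of fast fibres, of male C57BL/6 mice about 20 weeks old. The WT group held 3 libraries from Sirt6 flox/flox mice, in which both copies of Sirt6 carry loxP sites and no Cre is present. The Sirt6 KO group held 3 libraries from Myl1-Cre; Sirt6 flox/flox mice, so both groups share the floxed allele and differ in Cre. Sirt6 is a NAD-dependent histone deacetylase. The study describes the Myl1 promoter as driving Cre mainly in postmitotic fast fibres, from an onset in the embryo as myoblasts differentiate. The labels number the libraries of each group as replicates 1, 2 and 3.

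The gene-level RNA count of the targeted gene did not follow its label. Sirt6 had 138, 105 and 165 counts across WT replicates 1, 2 and 3, against 457, 451 and 368 across the replicates labelled Sirt6 KO. It was 2.78-fold higher in the labelled Sirt6 KO group (edgeR quasi-likelihood test, log2 fold change 1.48 ± 0.17 SE, Benjamini-Hochberg adjusted p = 0.0113), and the groups did not overlap. At the protein level, the study reports by Western blot that Sirt6 was ablated in skeletal muscle of this line. A count summed over the whole gene does not separate reads from the floxed exons from the rest. Whether the labels match the genotypes was not tested. Directions are therefore given below for the libraries labelled Sirt6 KO.

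As background, a dividing cell passes through a growth phase, a phase in which the DNA is copied, a further growth phase and mitosis. Cyclins activate cyclin-dependent kinases (CDKs) at each step. D-type and E-type cyclins act before replication through the retinoblastoma protein, which restrains the E2F transcription factors. The MCM complex is loaded at replication origins as a helicase, and cyclin B with Cdk1 then drives entry into mitosis. The anaphase-promoting complex (APC/C) marks mitotic cyclins for destruction at the end. Muscle fibres are fused, postmitotic cells. In adult muscle at rest division is rare and belongs to mononucleated cells such as satellite cells (the muscle stem cells), endothelium, fibroblasts and immune cells.

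The tissue was skeletal muscle by its markers. The 6 myofibre markers (Acta1, Ckm, Myh4, Myh1, Mylpf and Tnnt3) summed to 123951 to 193830 normalized CPM in WT and 182680 to 208626 in labelled Sirt6 KO, where CPM is the count scaled to a common library total after edgeR's TMM scaling of each library. The libraries held 44845763 to 63016899 counts, so that 1 count was worth 0.0165 to 0.0212 normalized CPM. The cell cycle genes took between 0.00892% and 0.0106% of all counts in a library. On the length-corrected FPKM scale, 8 of the 37 genes had a mean level over 1 and 14 had one under 0.1. Pcna alone carried 23.0% of the summed normalized CPM of the 37 genes.

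Most genes of mitosis were therefore read from few counts. Of the 37 genes, 10 were at 0 in at least 1 library and 15 were under 10 counts in at least 1 library. Bub1, a kinase of the spindle checkpoint, had 0 counts in all 6 libraries, and a count of 0 allows up to 3 counts in a library. The intervals and limits given for counts cover counting error only. Across the whole table, 24 genes had 0 counts in one library and at least 100 in another, 9 genes were at 0 in every labelled Sirt6 KO library with at least 8 counts in every WT library, and 2 genes showed the reverse.

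**Figure D1:**
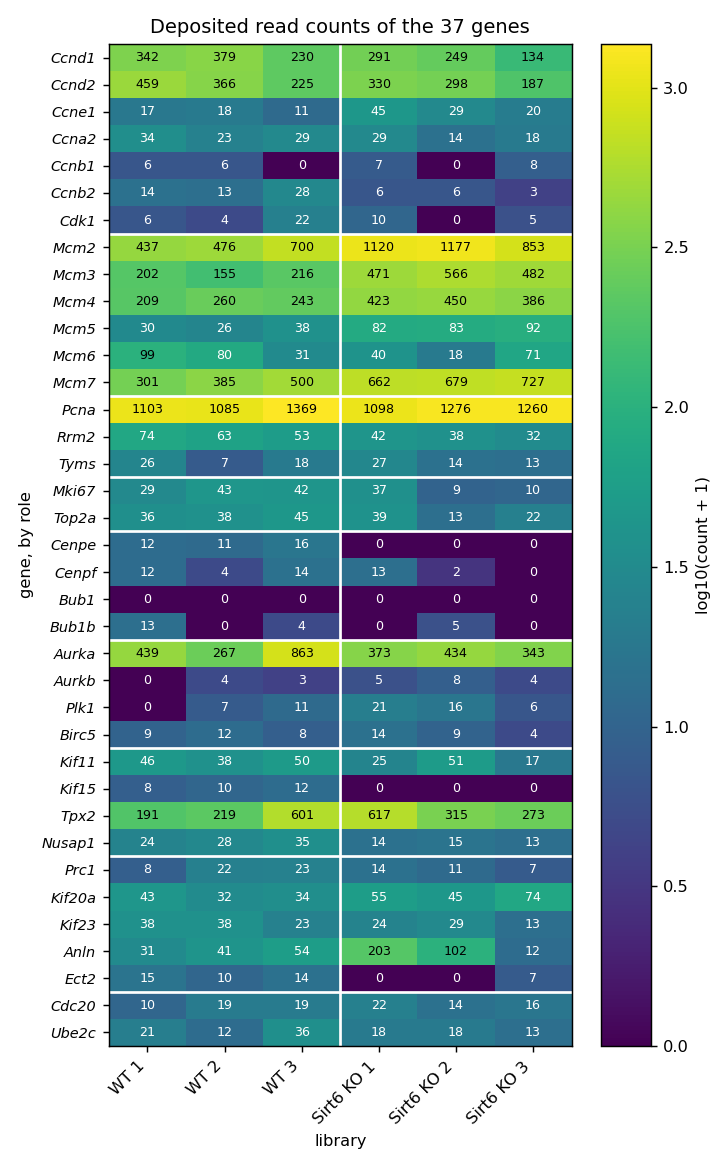
Deposited read count (printed in each cell) of the 37 genes, in rows by role, in the 6 libraries, in columns, coloured by log10(count + 1). Pcna, Mcm2, Mcm3, Mcm4, Mcm7, Ccnd1, Ccnd2, Aurka and Tpx2 exceed 100 counts in all 6 libraries, and outside Aurka, Tpx2, Anln and Kif20a the mitotic genes reach at most 51.

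The filter of edgeR for genes with few reads kept 32 of the 37 for testing. Ccnb1, Cdk1, Bub1, Bub1b and Aurkb did not pass. A gene that is low in one group can pass the filter through the other group, which holds for Ccnb2, Cenpe, Kif15 and Ect2 below. At an adjusted p under 0.05, 3 of the 32 were lower in labelled Sirt6 KO (9.38%), where 8.39% of all 13801 genes tested were lower. The 5 that were higher (15.6%) stand beside 7.85% of all genes. All 5 were MCM helicase genes, and none of the other 26 tested genes was called higher (3 of these 26 had been called lower, namely Ccnb2, Cenpe and Kif15). Counted instead by a change of more than 2-fold together with p under 0.05 before adjustment, 5 lay below WT and 2 above, where 4.69% and 3.14% of all genes did. In 7 of the 32 every labelled Sirt6 KO library was below every WT library, and in 5 every one was above, beside 19.6% and 20.3% of all genes tested. At an adjusted p under 0.05 and by overlap of the groups, the share of lower genes was thus close to that of the table as a whole, and by the 2-fold count it was above it. Ccnb2, Cenpe and Kif15, the 3 called lower, were tested through their WT counts alone and are among the lower genes in each of these counts. Ect2, also tested through WT alone, is in the 2-fold and overlap counts. All of these counts are therefore descriptions.

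The fitted changes were more often below 0. Of the 32 genes, 22 had a negative log2 fold change and 10 a positive one, with a median of -0.61, also with Cenpe and Kif15 set at their bounds, beside -0.02 over all genes tested. The calls were sensitive to single libraries. Leaving out WT 1 or WT 2 left Mcm3 as the sole called gene of the 32, leaving out Sirt6 KO 2 left Mcm3 and Cenpe, and leaving out Sirt6 KO 1 or Sirt6 KO 3 left 0 called genes (5 and 6 genes were then higher and 9 and 5 lower at an unadjusted p under 0.05). Without WT 3 the 5 MCM genes, Cenpe and Kif15 passed, and so did Ccnd2 and Rrm2. Over all genes tested, the higher calls likewise fell from 1084 to 6 without Sirt6 KO 1 and to 8 without Sirt6 KO 3, and rose to 2363 without WT 3.

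**Figure D2:**
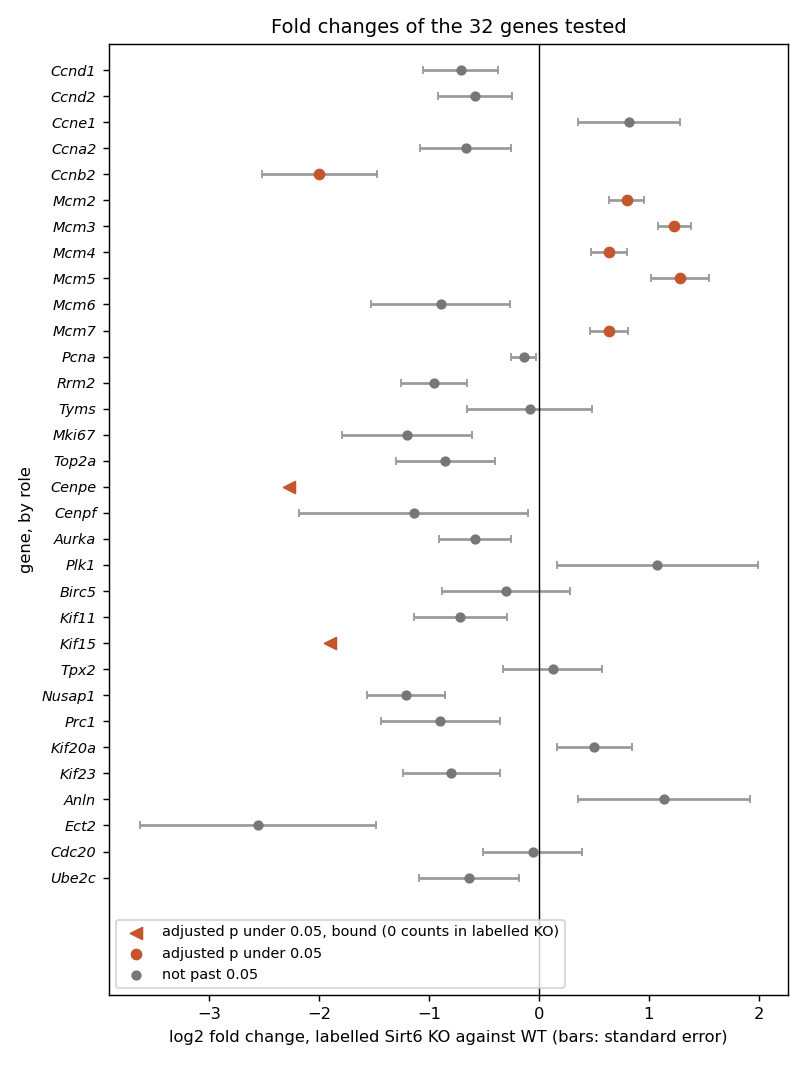
Log2 fold change of labelled Sirt6 KO against WT (x axis) for the 32 genes tested (y axis, by role), with bars for the standard error of the edgeR fit and coloured points for an adjusted p under 0.05. Triangles mark Cenpe and Kif15, which had 0 counts in all labelled Sirt6 KO libraries and are drawn at their bound with no error bar, and the 5 called genes to the right of 0 are Mcm2, Mcm3, Mcm4, Mcm5 and Mcm7.

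The 6 genes Mcm2 to Mcm7 encode the subunits of the MCM ring, which opens the double helix ahead of the replication fork. In all, 5 subunit genes were higher in labelled Sirt6 KO and Mcm6 was not. Mcm2 had 437, 476 and 700 counts in WT and 1120, 1177 and 853 in labelled Sirt6 KO. Its normalized level was 10.4 ± 1.74 CPM (SD, n = 3) in WT and 18.0 ± 2.19 in labelled Sirt6 KO (edgeR log2 fold change 0.80 ± 0.16 SE, adjusted p = 0.0225). The groups did not overlap, with WT 3 the highest of the WT libraries.

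Mcm3 had 202, 155 and 216 counts in WT and 471, 566 and 482 in labelled Sirt6 KO. Its level was 3.70 ± 0.385 CPM (SD, n = 3) and 8.71 ± 0.645 CPM, and the log2 fold change was 1.23 ± 0.15 SE (edgeR adjusted p = 0.0128). The groups did not overlap. After scaling for depth, the lowest labelled Sirt6 KO library had 8.05 CPM and the highest WT library 4.05 CPM. Mcm4 had 209, 260 and 243 counts in WT and 423, 450 and 386 in labelled Sirt6 KO (4.65 ± 0.751 against 7.22 ± 0.208 CPM, SD, n = 3), a log2 fold change of 0.64 ± 0.16 SE with edgeR adjusted p = 0.0415. Mcm5 had 30, 26 and 38 counts in WT and 82, 83 and 92 in labelled Sirt6 KO (0.605 ± 0.0559 against 1.48 ± 0.165 CPM, SD, n = 3), and its log2 fold change of 1.28 ± 0.26 SE (edgeR adjusted p = 0.0228) was the highest of the 32 genes. For both genes each group stayed clear of the other.

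Mcm7 had 301, 385 and 500 counts in WT and 662, 679 and 727 in labelled Sirt6 KO, which is 7.64 ± 1.42 and 11.9 ± 1.12 CPM (SD, n = 3), with a log2 fold change of 0.64 ± 0.17 SE (edgeR adjusted p = 0.0452). These groups did not overlap either. Exons of Ap4m1 and Cops6 lie on the opposite strand over Mcm7, and the microRNA genes Mir25 and Mir93 lie within it on the same strand. Whether the counting used strand is not given in the sources used here, so the count of Mcm7 is uncertain to that extent.

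Mcm6 went the other way in fitted value but did not pass the test. It had 99, 80 and 31 counts in WT and 40, 18 and 71 in labelled Sirt6 KO. WT 3 thus lay inside the labelled Sirt6 KO range, and Sirt6 KO 1 and Sirt6 KO 3 lay inside that of WT. Its log2 fold change was -0.89 ± 0.63 SE (edgeR adjusted p = 0.344). On the length-corrected scale, the mean level in WT was 2.81 FPKM for Mcm2 and 2.92 for Mcm7, 1.19 for Mcm3 and 1.20 for Mcm4, but 0.357 for Mcm6 and 0.158 for Mcm5, so transcripts of subunits that form 1 ring differed widely in level. In labelled Sirt6 KO the mean was 0.166 FPKM for Mcm6, 0.349 for Mcm5 and 4.43 for Mcm2.

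Summed over the 6 MCM genes, the level was 25.6, 29.3 and 30.2 CPM in WT and 47.8, 49.0 and 47.4 CPM in labelled Sirt6 KO. The spread within a group was small beside the gap between groups, with no test made on the sum. For each of the 5 higher genes singly, the two-sided exact permutation test over the 6 libraries gave p = 0.1, which is the smallest p that 3 against 3 allows. Leaving out 1 library at a time, the log2 fold change of the 5 genes stayed between 0.50 (Mcm7) and 1.36 (Mcm5). Mcm3 stayed under 0.05 in 4 of the 6 leave-one-out fits (adjusted p 0.00567 to 0.0699), while Mcm2, Mcm4, Mcm5 and Mcm7 did so in 1 of 6, the fit without WT 3. When the trend of fold change with transcript GC content was removed, Mcm2 (adjusted p = 0.0476), Mcm3 (0.0214), Mcm4 (0.0410) and Mcm5 (0.0433) still passed and Mcm7 (0.111) did not.

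**Figure D3:**
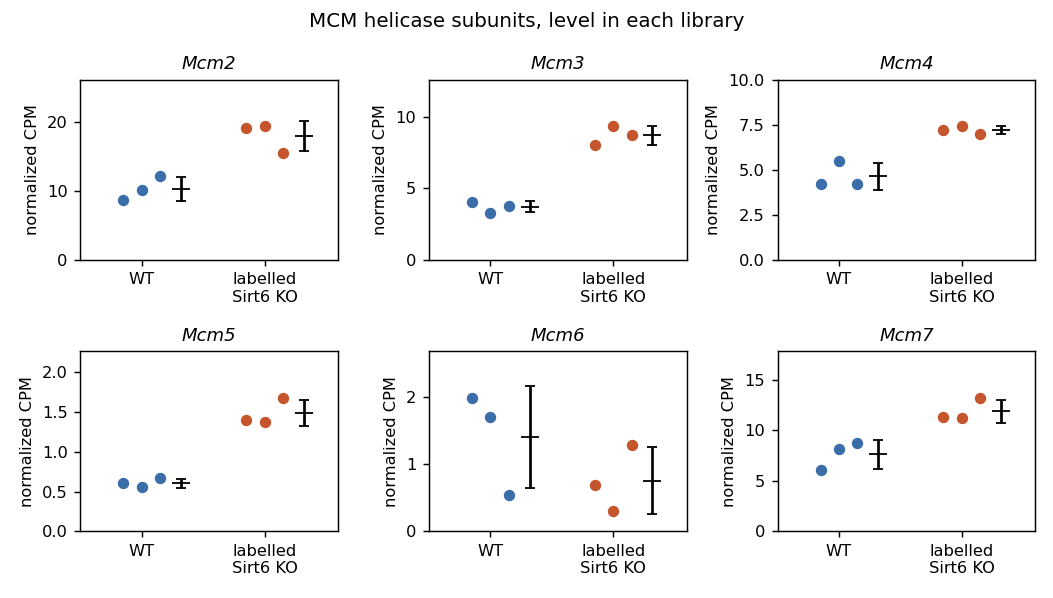
Normalized CPM (y axis, from 0) of the 6 MCM genes in each library, with WT in blue and labelled Sirt6 KO in orange, and beside the points a dash for the group mean with a bar of 1 SD (n = 3). In 5 panels the orange points lie above all blue points, and in the Mcm6 panel the groups overlap.

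The sequence upstream of these genes is shown because the MCM genes and Ccnb2 are textbook targets of factors that bind known motifs there. RefSeq (GRCm38.p6) listed an upstream window for 30 of the 37 genes, all but Kif20a, Mcm4, Ccnd1, Ccnd2, Ccna2, Aurkb and Tpx2. The 250 bases before the first listed start were searched on both strands for 3 motifs. The E2F octamers were TTTCCCGC, TTTGGCGC, TTTCGCGC and TTTGCCGC, the CCAAT box was CCAAT, and the cell cycle homology region (CHR) was TTTGAA or TTTAAA. An octamer was found in 5 of the 30 windows and in 3 of 5 MCM windows (Mcm5, Mcm6 and Mcm7), beside 1.91% of 27025 windows over all genes. The CCAAT box was in 24 of 30 and in 5 of 5 MCM windows beside 34.5% of all, and the CHR in 16 of 30 and 2 of 5 beside 25.5%. A match is a description of the letters and not of binding. The part of each window free of annotated exons is printed 5′ to 3′ on the gene's strand for 4 MCM genes and Ccnb2, with every match to the 3 motifs in capitals. The stretches are chr6:88898781-88899030 (minus strand) for Mcm2, chr1:20820313-20820562 (minus) for Mcm3, chr8:75109259-75109467 (plus) for Mcm5, chr1:128359706-128359955 (minus) for Mcm6 and chr9:70421555-70421804 (minus) for Ccnb2.
Mcm2: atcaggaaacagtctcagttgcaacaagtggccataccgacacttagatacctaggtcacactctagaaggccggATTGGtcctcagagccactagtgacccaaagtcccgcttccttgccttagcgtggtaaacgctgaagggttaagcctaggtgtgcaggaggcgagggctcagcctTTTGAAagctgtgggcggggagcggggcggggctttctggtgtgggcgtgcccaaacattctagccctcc
Mcm3: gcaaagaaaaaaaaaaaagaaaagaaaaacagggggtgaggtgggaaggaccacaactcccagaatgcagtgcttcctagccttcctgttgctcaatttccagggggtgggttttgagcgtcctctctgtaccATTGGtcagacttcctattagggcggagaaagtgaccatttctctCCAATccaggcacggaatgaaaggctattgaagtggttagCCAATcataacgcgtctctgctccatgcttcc
Mcm5: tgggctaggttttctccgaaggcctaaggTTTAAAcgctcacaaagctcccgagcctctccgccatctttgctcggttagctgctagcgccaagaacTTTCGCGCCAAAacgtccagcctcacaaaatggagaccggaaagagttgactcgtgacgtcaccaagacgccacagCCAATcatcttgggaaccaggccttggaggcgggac
Mcm6: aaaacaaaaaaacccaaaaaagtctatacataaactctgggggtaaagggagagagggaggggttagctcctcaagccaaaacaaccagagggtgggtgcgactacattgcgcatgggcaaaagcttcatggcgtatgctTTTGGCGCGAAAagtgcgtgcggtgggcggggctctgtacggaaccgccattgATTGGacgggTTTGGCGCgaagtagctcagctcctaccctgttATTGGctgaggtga
Ccnb2: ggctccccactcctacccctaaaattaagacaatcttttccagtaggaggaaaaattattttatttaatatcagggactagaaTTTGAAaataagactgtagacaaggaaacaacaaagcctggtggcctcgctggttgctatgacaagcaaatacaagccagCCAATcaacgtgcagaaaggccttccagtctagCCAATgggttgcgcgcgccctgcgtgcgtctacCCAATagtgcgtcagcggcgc
The stretch of Mcm5 holds 2 overlapping octamers, read on opposite strands, 1 CCAAT box and 1 CHR, and that of Mcm6 holds 3 octamers, of which 2 overlap, and 2 CCAAT boxes. The stretch of Mcm3 holds 3 CCAAT boxes and none of the octamers, and that of Mcm2 holds 1 CCAAT box and 1 CHR. Among the MCM genes shown, Mcm6 holds the most octamers. Ccnb2 holds 3 CCAAT boxes and 1 CHR.

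Of the cyclins among the 37 genes, Ccnb2, a mitotic cyclin that activates Cdk1, was the one called, and it was lower. It had 14, 13 and 28 counts in WT and 6, 6 and 3 in labelled Sirt6 KO, or 0.348 ± 0.121 and 0.0853 ± 0.0268 CPM (SD, n = 3). Every labelled Sirt6 KO library was below every WT library at a depth of a few counts, and the log2 fold change was -2.00 ± 0.52 SE (edgeR adjusted p = 0.0423). Ccnb2 entered the test through its WT counts alone. The call was lost in all 6 leave-one-out fits (adjusted p 0.0636 to 0.159) and with the GC trend removed (adjusted p = 0.0583), each with a fold change of the same sign. Its partner Cdk1, the mitotic kinase, had at most 22 counts in any library and was not tested, like Ccnb1 with at most 8.

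The D-type cyclins, which sense growth signals, were the most abundant of the cyclins among the 37 genes by count. Ccnd1 had 342, 379 and 230 counts in WT and 291, 249 and 134 in labelled Sirt6 KO, and the groups overlapped (log2 fold change -0.71 ± 0.34 SE, edgeR adjusted p = 0.176). Ccnd2 had 459, 366 and 225 counts in WT and 330, 298 and 187 in labelled Sirt6 KO (log2 fold change -0.58 ± 0.34 SE, adjusted p = 0.255). In both genes WT 3 was the lowest WT library and Sirt6 KO 3 the lowest of all. Like Mcm7, these are among the 10 of the 37 genes with exons of another gene on the opposite strand, whose counts are uncertain in the same way, the others being Ccna2, Plk1, Nusap1, Prc1, Kif20a, Cdc20 and Ube2c. Ccne1, which acts at the start of replication, had a log2 fold change of 0.82 and Ccna2, which acts during it, of -0.67, neither past the test.

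Pcna, the sliding clamp that holds DNA polymerase on its template, was the most abundant of the 37 genes. It had 1103, 1085 and 1369 counts in WT and 1098, 1276 and 1260 in labelled Sirt6 KO, or 23.0 ± 0.887 and 20.9 ± 2.06 CPM (SD, n = 3). The groups overlapped, with a log2 fold change of -0.14 ± 0.11 SE (edgeR adjusted p = 0.406). Rrm2, the regulated subunit of ribonucleotide reductase, had 74, 63 and 53 counts in WT and 42, 38 and 32 in labelled Sirt6 KO. All labelled Sirt6 KO libraries were below all WT libraries, but the adjusted p was 0.0703 (log2 fold change -0.95 ± 0.30 SE). Tyms, which makes thymidylate, had at most 27 counts in any library and a log2 fold change of -0.09. None of the 3 passed the test, and with the GC trend removed the fitted changes of Pcna and Tyms were 0.0021 and 0.0082.

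Mki67 encodes the Ki-67 protein, which is present in cycling cells and widely used to mark them. It had 29, 43 and 42 counts in WT and 37, 9 and 10 in labelled Sirt6 KO, so Sirt6 KO 1 lay within WT and the other two below it (log2 fold change -1.20 ± 0.59 SE, edgeR adjusted p = 0.189). Top2a, the topoisomerase that untangles replicated chromosomes, had 36, 38 and 45 counts in WT and 39, 13 and 22 in labelled Sirt6 KO (log2 fold change -0.85 ± 0.45 SE, adjusted p = 0.218). In raw counts Sirt6 KO 1 again lay among the WT libraries, while after scaling for depth the groups no longer overlapped.

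Of the genes for the kinetochore and the spindle checkpoint, Cenpe, a kinesin-like motor that links chromosomes to microtubules, had 12, 11 and 16 counts in WT and 0 in each labelled Sirt6 KO library. Its WT mean was 4.85-fold above a floor of 3 counts per library. The edgeR adjusted p was 0.0181, from a gene that entered the test through WT alone. This bound takes the WT mean as exact and a 0 as at most 3 counts, which estimates from coverage do not ensure. Kif15, a kinesin of the spindle, had 8, 10 and 12 counts in WT and likewise 0 in each labelled Sirt6 KO library. Its WT mean was 3.75-fold above the same floor, with the same limits (edgeR adjusted p = 0.0223). Cenpe and Kif15 are the 2 members among the 9 genes of the table that were at 0 in every labelled Sirt6 KO library with at least 8 counts in every WT library. With DESeq2 both had no adjusted p, and with limma on log2(FPKM + 0.1) neither passed (adjusted p 0.159 and 0.110). Cenpe passed in 2 of the 6 leave-one-out fits, those without WT 3 (adjusted p = 0.0206) and without Sirt6 KO 2 (0.0448), and Kif15 in 1, without WT 3 (0.0273).

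The other kinetochore genes were near the limit of detection. Cenpf had 12, 4 and 14 counts in WT and 13, 2 and 0 in labelled Sirt6 KO (log2 fold change -1.14 ± 1.04 SE, edgeR adjusted p = 0.464). Sirt6 KO 1 lay within the range of WT. Bub1b, a checkpoint protein, had at most 13 counts and was not tested.

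Of the mitotic kinases, Aurka, which acts at the centrosome, was far more abundant than the others. It had 439, 267 and 863 counts in WT and 373, 434 and 343 in labelled Sirt6 KO. WT 3 was the highest and WT 2 the lowest of all 6 libraries, and the groups overlapped (log2 fold change -0.58 ± 0.33 SE, edgeR adjusted p = 0.242). Its activator at the spindle, Tpx2, was high in the same WT library, with 191, 219 and 601 counts in WT and 617, 315 and 273 in labelled Sirt6 KO. For Tpx2, Sirt6 KO 1 was as high as WT 3 (log2 fold change 0.12 ± 0.45 SE, adjusted p = 0.867), and the sign turned without WT 1 (-0.12), without WT 2 (-0.06) or without Sirt6 KO 1 (-0.32).

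Plk1, a kinase of mitotic entry and exit, had 0, 7 and 11 counts in WT and 21, 16 and 6 in labelled Sirt6 KO (log2 fold change 1.08 ± 0.91 SE, edgeR adjusted p = 0.430). Birc5, or survivin, which works with Aurkb in the chromosomal passenger complex, had at most 14 counts in any library, and Aurkb at most 8. Kif11, the kinesin that pushes the spindle poles apart, had 46, 38 and 50 counts in WT and 25, 51 and 17 in labelled Sirt6 KO. Sirt6 KO 2 was as high as WT in that gene and the other two were lower (log2 fold change -0.72 ± 0.43 SE, adjusted p = 0.266). Nusap1, which bundles spindle microtubules, had 24 to 35 counts in WT and 13 to 15 in labelled Sirt6 KO, with groups that did not overlap and an adjusted p of 0.0572 (log2 fold change -1.21 ± 0.36 SE).

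In the genes of the central spindle and of cytokinesis no test was passed. Anln, an actin-binding scaffold of the cleavage furrow, had 31, 41 and 54 counts in WT and 203, 102 and 12 in labelled Sirt6 KO. Thus 2 labelled Sirt6 KO libraries were the highest of the 6 and the third was the lowest (log2 fold change 1.14 ± 0.79 SE, edgeR adjusted p = 0.333). Kif20a, a kinesin of the central spindle with Cdc23 on the opposite strand, had 43, 32 and 34 counts in WT and 55, 45 and 74 in labelled Sirt6 KO (log2 fold change 0.50 ± 0.34 SE, adjusted p = 0.326). Ect2, which activates RhoA at the furrow, had 15, 10 and 14 counts in WT and 0, 0 and 7 in labelled Sirt6 KO, with an adjusted p of 0.136. Prc1 and Kif23 had fitted log2 fold changes of -0.90 and -0.80.

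The last pair acts with the APC/C, Ube2c as its ubiquitin-conjugating enzyme and Cdc20 as its activator in mitosis. Ube2c had 21, 12 and 36 counts in WT and 18, 18 and 13 in labelled Sirt6 KO (log2 fold change -0.64 ± 0.45 SE, edgeR adjusted p = 0.348). The gene opposite Ube2c is Tnnc2, the abundant troponin C gene of fast fibres. Cdc20 had 10, 19 and 19 counts in WT and 22, 14 and 16 in labelled Sirt6 KO (log2 fold change -0.06 ± 0.45 SE, adjusted p = 0.937). Neither gene differed beyond the spread between libraries.

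The summed level of the 37 genes therefore depended on which of them were counted. It was 87.1, 89.1 and 98.1 CPM in WT and 106, 98.9 and 93.1 CPM in labelled Sirt6 KO, a ratio of means of 1.08, and of 0.959 without Pcna, Mcm2 and Mcm7, the 3 most abundant. The 23 genes left without the D- and E-type cyclins, the MCM and other replication genes, Aurka and Tpx2 summed to 8.32, 8.80 and 9.11 CPM in WT and 9.50, 6.05 and 4.58 CPM in labelled Sirt6 KO. Here the labelled Sirt6 KO libraries were spread on both sides of WT, Sirt6 KO 1 above it and the other two below. The place of Sirt6 KO 1 above WT rests on Anln alone. Anln had 3.47 CPM in Sirt6 KO 1, against 0.622, 0.870 and 0.942 CPM in WT and 1.68 and 0.218 in Sirt6 KO 2 and 3. With Anln left out, after its values were seen, every labelled Sirt6 KO sum lay below every WT sum, with no test made. In bulk muscle, fewer cells of a type and less RNA per cell cannot be told apart.

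Around the 37 genes, 132 further cell cycle genes were sorted by role into 8 lists, of which 117 genes were tested. Of these, 9 were lower in labelled Sirt6 KO and 9 higher at an adjusted p under 0.05 (7.69% each), with a median log2 fold change of 0.02. These shares were no larger than the 8.39% and 7.85% of all genes tested, so the calls that follow are values of single genes. Of the 6 CDK inhibitors tested, 2 were lower and none higher. Cdkn1a, which encodes the inhibitor p21, had 46.8, 83.1 and 45.4 CPM in WT and 19.9, 32.6 and 22.7 CPM in labelled Sirt6 KO (log2 fold change -1.22 ± 0.28 SE, edgeR adjusted p = 0.0315). Cdkn1b, which encodes p27, had 29.4, 31.1 and 32.8 CPM in WT and 23.8, 20.7 and 21.8 in labelled Sirt6 KO (log2 fold change -0.49 ± 0.11 SE, adjusted p = 0.0246). In both genes every labelled Sirt6 KO library was below every WT library.

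Of the 20 pocket proteins, E2F factors and MuvB subunits, 3 were lower and 1 was higher. E2f2, an activating E2F, had 0.622, 0.785 and 1.06 CPM in WT and 2.80, 2.13 and 2.54 CPM in labelled Sirt6 KO (log2 fold change 1.59 ± 0.28 SE, edgeR adjusted p = 0.0168). E2f8, an atypical E2F that represses, had 72, 73 and 15 counts in WT and 5, 6 and 6 in labelled Sirt6 KO (log2 fold change -3.44 ± 0.72 SE, adjusted p = 0.0244). E2f7, the other atypical E2F, had 38, 38 and 15 counts in WT and 4, 10 and 5 in labelled Sirt6 KO (log2 fold change -2.46 ± 0.61 SE, adjusted p = 0.0367). In both atypical factors WT 3 was well below the other WT libraries, though above labelled Sirt6 KO. E2f7 and E2f8 both entered the test through their WT counts alone, which limits these calls as for Cenpe and Kif15. Rb1, the retinoblastoma gene, had 27.0, 27.4 and 25.2 CPM in WT and 20.1, 17.3 and 17.9 in labelled Sirt6 KO (log2 fold change -0.52 ± 0.11 SE, adjusted p = 0.0229). The other 16 genes of the list, E2f1 and E2f3 among them, were not called. With the GC trend removed, Rb1 (adjusted p = 0.194) and E2f7 (0.0524) no longer passed, and Rb1, E2f7 and E2f8 each passed in 1 of 6 leave-one-out fits.

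**Figure D4:**
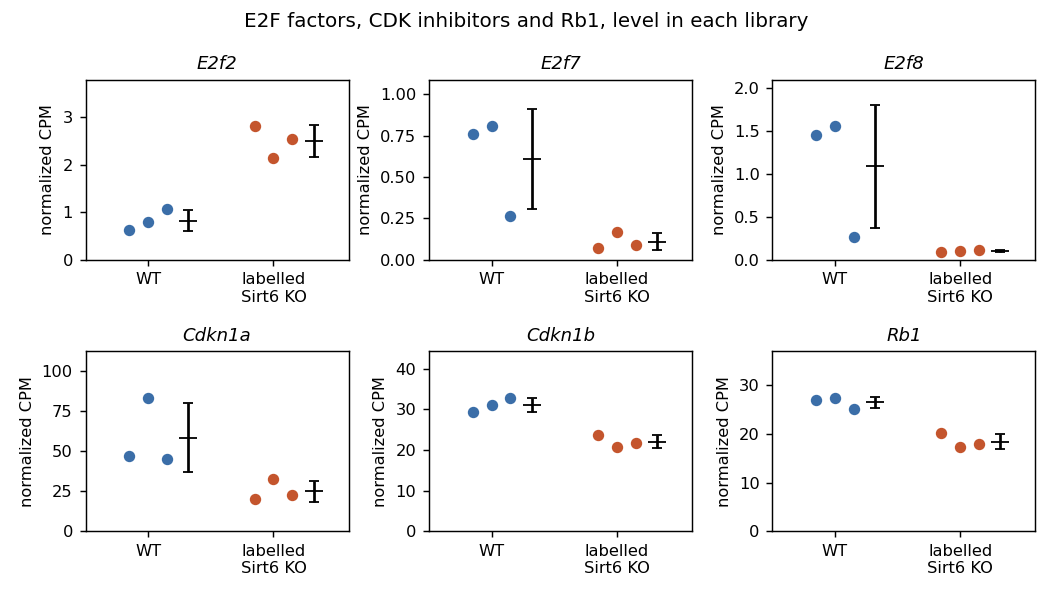
Normalized CPM (y axis, from 0) of E2f2, E2f7, E2f8, Cdkn1a, Cdkn1b and Rb1 in each library, with WT in blue and labelled Sirt6 KO in orange, and beside the points a dash for the group mean with a bar of 1 SD (n = 3). E2f2 is higher in all orange points and the other 5 genes are lower, with the third WT point of E2f7 and E2f8 (0.262 CPM in each) nearest to the orange ones.

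The other genes that load origins or form the fork were called at about the rate of all genes (8.39% lower, 7.85% higher). Of 15 genes of origin licensing and firing, 1 was called (6.67%), Orc4 of the origin recognition complex, which was lower (log2 fold change -0.62 ± 0.12 SE, edgeR adjusted p = 0.0195). Of 24 replication fork genes, 2 were higher (8.33%), both subunits of DNA polymerase delta, Pold2 (log2 fold change 0.64 ± 0.14 SE, adjusted p = 0.0280) and Pold1 (0.50 ± 0.14 SE, adjusted p = 0.0497). Of 14 other cyclins and CDK regulators, Ccnh, the cyclin of the CDK-activating kinase, was lower (log2 fold change -0.54, adjusted p = 0.0243).

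Of 16 APC/C genes, 4 were higher (beside 7.85% of all genes) and 1 was lower (beside 8.39%). Fzr1 encodes Cdh1, the activator that keeps the APC/C active in resting cells. It had 12.7, 12.9 and 15.4 CPM in WT and 25.8, 27.3 and 24.0 in labelled Sirt6 KO (log2 fold change 0.91 ± 0.12 SE, edgeR adjusted p = 0.0131). The subunit genes Anapc13 (log2 fold change 0.63), Anapc2 (0.45) and Anapc1 (0.45) were higher with adjusted p of 0.0274, 0.0416 and 0.0225, and Cdc27, chosen after its values were seen as the fifth, was lower (-0.44, adjusted p = 0.0296). Of 12 condensin and cohesin genes tested, 1 was called in each direction (8.33%). Ncapd2, a condensin subunit, was higher (log2 fold change 0.75, adjusted p = 0.0201) and Stag1, a cohesin subunit, was lower (-0.45, adjusted p = 0.0284). Of 10 further mitotic genes tested, Spc24 of the kinetochore was higher, with 39, 23 and 18 counts in WT and 107, 76 and 85 in labelled Sirt6 KO (log2 fold change 1.55 ± 0.39 SE, adjusted p = 0.0376). With the GC trend removed, 6 of these 18 calls were kept, namely Cdkn1a, E2f2, E2f8, Anapc1, Anapc13 and Fzr1. E2f8 among them was tested through its WT counts alone.

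Markers of the cell types that muscle holds were read beside these genes. Their part in the results was not tested. A covariate over 3 libraries in each group, as used below for the slow fibre markers, cannot decide it. The 6 slow fibre markers, such as Myh7, summed to 2547, 2142 and 52.3 CPM in WT and 192, 1542 and 320 in labelled Sirt6 KO, so WT 3 stood far below the other WT libraries, and none of the 6 was called. With that level as a covariate, chosen after seeing the data, the same 8 of the 32 cell cycle genes passed the test together with Nusap1, as did all 18 called genes of the further lists. The 8 satellite cell markers summed to 124 to 200 CPM in WT and 103 to 128 in labelled Sirt6 KO, with 3 markers called higher and 1 lower. Named after their values were seen, Pax7 (log2 fold change 1.28), Myf5 (1.33) and Cdh15 (0.97) were higher, at adjusted p of 0.0299, 0.0225 and 0.0243, and Sdc4 was lower (-1.41, adjusted p = 0.0257). With the GC trend removed, Pax7 (adjusted p = 0.0638) and Cdh15 (0.0731) no longer passed, and Pax7 passed in 1 of 6 leave-one-out fits. The other 4 markers of the list did not pass the test, and Sdc4 had the highest level of the 8. By sign, 4 of the 8 were negative and 4 positive. The groups did not overlap in 3 lower and 3 higher markers, beside 19.6% and 20.3% of all genes tested.

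The 8 endothelial markers summed to 194 to 397 CPM in WT and 216 to 233 in labelled Sirt6 KO with none called, and the 8 fibro-adipogenic markers to 620 to 1119 and 740 to 822 with none called. The 6 pericyte and smooth muscle markers summed to 222 to 507 and 194 to 235 CPM, with 1 lower, and the 5 Schwann cell markers to 12.6 to 32.1 and 10.6 to 21.6, also with 1 lower. The 9 macrophage markers summed to 43.0 to 117 and 56.3 to 63.8 CPM, the 7 erythroid markers to 46.6 to 297 and 80.2 to 181, and the 6 adipocyte markers to 124 to 257 and 162 to 293, none called. Of the sums, those for endothelial, fibro-adipogenic, erythroid, adipocyte, neutrophil and slow fibre markers were the lowest of the 6 libraries in WT 3. Single markers did not all follow their sum, as with the endothelial Pecam1 (59.6 CPM in WT 3 and 51.7 CPM in Sirt6 KO 3). The 7 lymphocyte markers summed to 2.1 to 4.23 and 1.32 to 2.65 CPM and the 6 neutrophil markers to 0.244 to 0.481 and 0.273 to 0.799 CPM, with none called among the few tested. Ly6g and Mpo of neutrophils were at 0 in all 6 libraries.

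**Figure D5:**
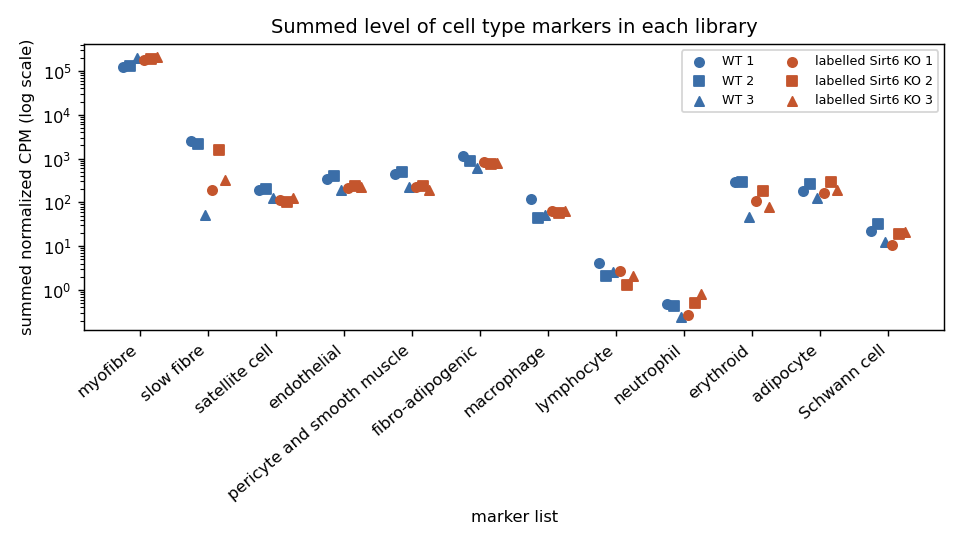
Summed normalized CPM (y axis, log scale) of the 12 lists of cell type markers (x axis) in each library, with WT in blue and labelled Sirt6 KO in orange and a symbol for each replicate number. All 12 lists overlap between groups, and the slow fibre list spans 52.3 to 2547 CPM within WT alone.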

How the data were processed

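Per the labels and methods, poly(A) RNA of 6 gastrocnemius samples was sequenced in paired reads of 100 bases. The deposited table gives, per gene, the read counts, the FPKM and the TPM that the authors made. The submitters' processing notes list FastQC 0.11.7, bcl2fastq 2.20.0, HISAT2 2.1.0, Bowtie2 2.3.4.1, StringTie 2.1.3b and mm10, whereas the reporting summary names STAR. The sources also name different library kits. Counts from StringTie are estimated from coverage, and the strand setting is not given in the sources used here. The TPM were not used here.

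The counts were tested across all genes with edgeR 4.0.16 (filterByExpr, TMM, quasi-likelihood test) in R 4.3.3, with Benjamini-Hochberg adjustment over 13801 genes and a call at adjusted p under 0.05. Scripts were tested on simulated data. DESeq2 1.42.0 and limma 3.58.1 on log2(FPKM + 1) or log2(FPKM + 0.1), other filters and size factors, a replicate block, a lowess fit (span 0.3) removing the GC trend and leaving out each library were alternatives, and the slow fibre covariate was added after seeing the data. The reporting summary calls replicates biological, the labels name no animal, and p-values measure the spread between these samples. The 2-sided permutation test used log2(CPM + 0.1). Genes were named by rule: called genes and the 2 with the highest mean count in each role, and up to 4 called genes of each further list by size of change. The members, lists and rule were chosen with earlier results of these data known. Exon overlaps came from GENCODE M21, promoters from RefSeq.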

Additional observations from a re-analysis of the deposited data

How the results depend on the processing

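The 5 MCM genes called higher kept that number under DESeq2, edgeR with DESeq2's size factors, limma and the filter of at least 10 counts in every library, and were 4 with no filter, the replicate block and the GC correction, and 0 to 5 on leaving out 1 library. The number called lower, 3, was 1 with DESeq2 (Ccnb2), with that filter (Nusap1 in their place) and with limma on log2(FPKM + 1) (Rrm2 in their place), 0 with the replicate block (7 at an unadjusted p under 0.05), and 0 to 4 without 1 library. The fits without 1 library hold fewer samples. For all genes, higher calls (1084) were 1671 with DESeq2, 468 with the GC trend removed, 2076 with the slow fibre covariate and 6 to 2363 without 1 library, and lower calls (1158) were 483, 2110 and 2 to 2219 under the last 3. The median log2 fold change of the 32 genes (-0.61) was -0.36 with the count filter and -0.050 and -0.35 with limma at pseudocounts of 1 and 0.1, which compress low levels by construction. The summed ratio was 0.959 without the 3 most abundant genes.

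Uncalled genes near 0 changed sign. Cdc20 was 0.0022 and 0.029 with limma, 0.16 without WT 2 and 0.11 without Sirt6 KO 2 (-0.28 to 0.16 without 1 library). Tyms was 0.0030 and 0.028 with limma, 0.0082 with the GC trend removed, 0.42 without WT 1, 0.10 without Sirt6 KO 2 and 0.08 without Sirt6 KO 3 (-0.49 to 0.42 without 1 library). Pcna was 0.0021 with the GC trend removed, Birc5 0.026 without Sirt6 KO 3 (from -0.76), and Tpx2 -0.12, -0.06 and -0.32 without WT 1, WT 2 and Sirt6 KO 1 (up to 0.71). The cause was not tested.

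Whether the replicate numbers pair the samples is not given in the sources used here. Deviations of same-numbered libraries from their group mean correlated at -0.11, 0.26 and 0.16, and those of other pairs at -0.34 to 0.21. WT 1 correlated best with Sirt6 KO 2. Deviations from a mean of 3 libraries depend on each other, so these values cannot decide on pairing. Under the block, Mcm2, Mcm3, Mcm5 and Mcm7 passed. Depth limits the genes under 10 counts in a library, 15 of the 37.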
